A study of Mus musculus with 160 samples.

Results

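Cytosolic ribosomal protein genes were followed through single-cell RNA-Seq of mouse hematopoietic induction. Members were the table's rows with the usual symbols of this family, Rpl or Rps followed by a number, Rplp0 to Rplp2 and Rpsa. The name pattern found 96 of 23420 rows, of which 11 were left out because they name S6 kinases or Rps19bp1, and none of the 96 lies on the Y chromosome in RefSeq. The remaining 85 rows held 33 small subunit and 52 large subunit names, on 19 chromosomes. Of these, 82 were above 1 TPM (transcripts scaled by length and by the cell's total) in more than 30 of the 160 cells, as were 9674 genes in all, which are called tested genes below.

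All cells were of the C57BL/6 strain and came from pluripotent stem cells that carry a doxycycline-inducible Runx1-p2a-Hoxa9 cassette at the Rosa26 locus. The 65 induced hemogenic endothelial cells (iHECs) were sorted as CD31+CD41lowCD45-c-kit+CD201high after doxycycline induction. The 21 day-14, 18 day-17 and 56 day-21 induced hematopoietic progenitor cells (iHPCs) had matured for 3, 6 and 10 days over an OP9-DL1 feeder layer, which presents the Notch ligand DL1, in medium with doxycycline. Day-14 and day-17 cells were sorted as CD45+Lin- and day-21 cells as Ter119-CD45+c-kit+CD127+. From iHEC to day 14 and from day 17 to day 21, day and sort gate therefore cannot be told apart. The labels name no culture or clone for any cell. Each group therefore counted as 1 sample, no test was run, and an SD covers variation among single cells only.

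The ribosome translates messenger RNA into protein. A small subunit decodes the message, a large subunit joins amino acids, and a set of ribosomal proteins folds the ribosomal RNA of each subunit and reaches outward to translation factors. Their messages belong to the most abundant in growing cells and most begin with a C followed by a run of pyrimidines (the 5' terminal oligopyrimidine motif), through which the kinase mTORC1 and the binding protein Larp1 set their translation together. Blood formation is sensitive to ribosomal protein dosage: loss of a single copy of several of these genes causes Diamond-Blackfan anemia, a failure of red cell production.

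The message start is the sequence feature the family is known for, and it is shown here for members whose levels are described later. RefSeq gave a start site for 64 of the 85 members (assembly GRCm38.p6). The windows run from 10 bases before the start to 20 after, 5' to 3' on the gene's strand, with several starts listed for some members and any 1 enough to count, and capitals mark the unbroken run of C and T where the start itself reads C and then 4 letters that are each C or T.
Rps10 (chr17:27635225-27635254, minus strand): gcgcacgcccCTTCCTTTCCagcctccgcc
Rps6 (chr4:86857348-86857377, minus strand): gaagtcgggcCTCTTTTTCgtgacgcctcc
Rps18 (chr17:33955646-33955675, minus strand): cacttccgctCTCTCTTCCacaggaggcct
Rps27 (chr3:90213629-90213658, minus strand): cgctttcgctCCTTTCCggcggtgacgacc
Rplp2 (chr7:141447641-141447670, plus strand): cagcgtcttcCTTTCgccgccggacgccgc
Rps21 (chr2:180257369-180257398, plus strand): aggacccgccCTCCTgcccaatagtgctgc
Rps4x (chrX:102189372-102189401, minus strand): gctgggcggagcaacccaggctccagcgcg
Rpl22l1 (chr3:28805498-28805527, plus strand): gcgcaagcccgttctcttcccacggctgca

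The run began exactly at the annotated start in 13 of the 64 members, or 20.3%, against 813 of 27025 genes, or 3.01%, in the whole RefSeq table. The 2 last windows have no capitals because their annotated starts read otherwise. Rps21 has a second annotated start, without the run. An annotated start can be off by a few bases, so a missing run says only that these letters are not at this position. The letters CCGGAAGT, looked for on either strand over 300 bases (250 before the start and 50 after), stood in 12 of 64 members (18.8%) and 4.31% of all genes. Members with and without the run at the start differed little between groups: from iHEC to day 14 the median member was 1.16 higher among the 13 and 0.94 higher among 48 tested members without it, on the log2(TPM + 1) scale used for all differences.

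Markers were read first as a check on the labelled cell types. Cdh5, the endothelial cadherin, passed 1 TPM in 63 of 65 iHECs and in no iHPC (0 cells), and Ptprc, which encodes CD45, in 1 iHEC and in 19, 17 and 55 iHPCs of day 14, 17 and 21. Tek, Kdr and Emcn passed it in at most 2 cells of any iHPC group. Other markers separated the groups less: Pecam1 passed it in 17, 16 and 46 iHPCs by day, and Esam in 15, 15 and 9. Of the blood cell markers, Laptm5, Cd53, Sfpi1 and Coro1a passed it in 39, 24, 23 and 14 iHECs. Stromal feeder transcripts were scarce, with 6 of 7 markers above 1 TPM in at most 2 cells of any group. The exception was Pdgfrb, above 1 TPM in 16 of 18 day-17 and 44 of 56 day-21 cells, and the 7 together took at most 0.0117% of a cell's TPM. Erythroid markers took at most 0.00439%. The median number of genes above 1 TPM per cell was 4926 for iHECs and 8200, 8101 and 6696 for the iHPCs in order of day. In 6 of the 18 day-17 cells, and in no other cell, the Y-linked genes Ddx3y or Eif2s3y were above 1 TPM, and the median ribosomal protein share was 9.50% in those 6 and 9.66% in the others.

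A pair of cells had a ribosomal protein profile unlike the rest of their group. For each cell, member levels were set against the group's median for that member after removing the cell's overall shift, over 81 members. In the day-21 cell numbered 27, 16 members were off by more than 2 on the log2 scale, while no other day-21 cell had more than 1. In the day-14 cell numbered 15, 7 members were off and in the other 20 day-14 cells none was. These cells had 3932 and 3103 genes above 1 TPM, and results that rest on them are given with and without them. For the share of Rps27l in its pair with Rps27, the median over cells is given instead. The iHECs varied more broadly, with at least 1 member off in 40 of 65 cells and at most 8 in a cell.

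The family took its smallest share of the transcriptome in iHECs and its largest at day 14. Ribosomal protein genes held 3.18% to 17.4% of the TPM of an iHEC, with a median of 7.08% and a mean of 7.68% ± 2.47 (SD, n = 65 cells). At day 14 the share ran from 9.60% to 18.2% with a median of 12.6% (mean 12.8% ± 1.89, n = 21 cells). All 21 day-14 cells lay above the iHEC median, yet 11 of 65 iHECs lay above the lowest day-14 cell, so the groups overlapped at their edges.

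At day 17 the share was lower again, from 4.87% to 11.8% with a median of 9.65% (mean 9.04% ± 1.69, n = 18 cells). No day-17 cell reached the day-14 median, and the ratio of medians was 0.764. At day 21 it ran from 5.27% to 18.98% with a median of 10.2% (mean 10.5% ± 3.18, n = 56 cells). The medians of day 17 and day 21 differed by 0.534 percentage points, less than the SD of either group, while the day-21 cells were the more spread out.

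**Figure D1:**
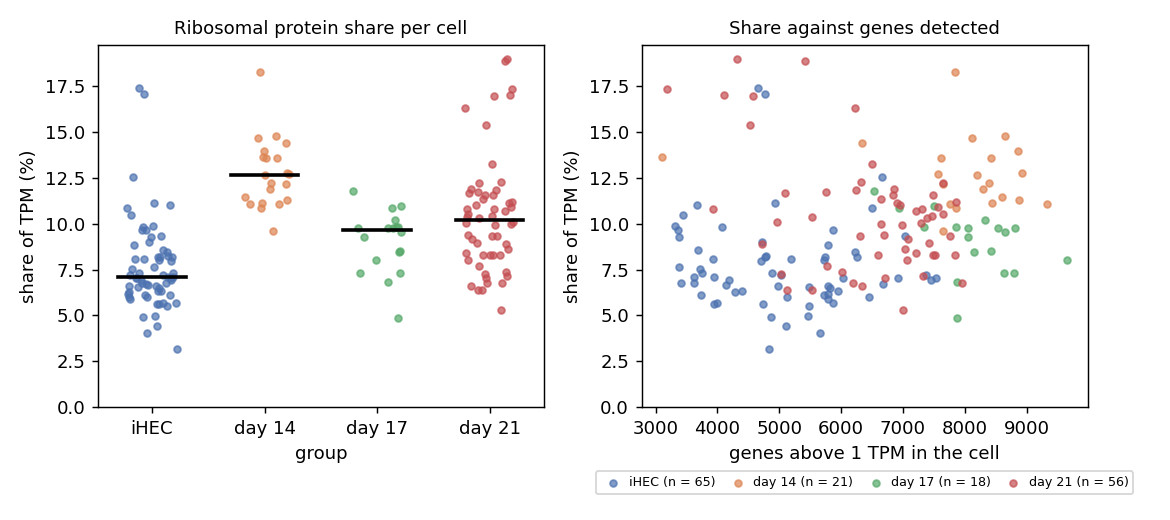
Share of each cell's TPM held by the 85 ribosomal protein genes (%), by group on the left with a bar at the median, and against the number of genes above 1 TPM in the cell on the right. Points are single cells. The day-14 cells sit between 9.60% and 18.2% around a median of 12.6%, above most iHECs, and 7 day-21 cells stand above the rest of their group at 15.4% or more.

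The day-21 cells did not spread evenly. In 7 of 56 cells the share was 15.4% or higher, and the next cell below was at 13.2%. These 7 cells had 3188 to 6228 genes above 1 TPM, with a median of 4520. Across the 56 cells the share had a Pearson r of -0.45 with the number of genes above 1 TPM (Spearman rho -0.24). It had an r of 0.40 with the mean level of 6 T lymphoid markers and of -0.38 with that of 8 mast cell markers (rho 0.45 and -0.34). The r was -0.55 with that of 5 blood cell markers (rho -0.45). All of these points are cells of 1 group, and every TPM value shares its cell's total. The share moved with gene detection and with the marker levels together, and the part of either was not tested. The mast cell markers together took 0.00841% to 11.7% of TPM at day 21, with a median of 0.160%, and 6 of the 8 were above 1 TPM in more than 30 cells. Cpa3 was above 1 TPM in all 56 day-21 cells and Mcpt4 in 53, while Fcer1a was above it in 2. The T lymphoid markers took 0% to 0.377%, with a median of 0.0486%. Of them, Lck was above 1 TPM in 42 day-21 cells and Cd3g in 30, but Cd3d and Cd3e in 8 each, Cd2 in 4 and Bcl11b in 1. Among iHECs, 2 cells at 17.1% and 17.4% stood apart from the third highest at 12.5%.

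Both subunits followed the same order of groups. Small subunit genes held medians of 3.25%, 5.46%, 4.11% and 4.49% of TPM in the 4 groups, iHECs first and then by day. The corresponding large subunit medians were 3.84%, 7.18%, 5.51% and 5.73%. The ratio of small to large was highest in iHECs, with a median of 0.845 (0.725 to 1.02), and its medians were 0.778, 0.758 and 0.779 at day 14, 17 and 21. Leaving out Rps14 alone brought the medians to 0.748, 0.735, 0.722 and 0.732, so much of the iHEC excess of small subunit transcript was this 1 gene.

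Set against the tested genes, the family's median difference had the opposite sign to theirs in the last 2 comparisons. From iHEC to day 14 the median member was 1.07 higher on the log2(TPM + 1) scale, and the median over the 9674 tested genes was 0.93. The second value depended on the pseudocount, at 1.83 with 0.1 and 0.21 with 10, while the median member stayed at 1.07 and 1.02, so no order of the family and the other genes can be read at this step. From day 14 to day 17 the median member was 0.53 lower, while the median gene was 0.28 higher. From day 17 to day 21 the order turned: the median member was 0.23 higher and the median gene 0.74 lower. With a pseudocount of 0.1 or 10 the median tested gene was 0.33 or 0.16 higher from day 14 to day 17. From day 17 to day 21 it was at -1.22 or -0.29. The opposed directions held, while the distance between family and median gene did not keep its size. Without the filter on low genes the median over all genes was 0.0 at both steps, and the median member was at -0.51 and 0.21. The opposed directions are therefore those of tested genes only. The median member moved by 1.07 in the first comparison, where the pooled SD between cells of the cell's median member level was 0.36. In the other 2 comparisons that SD was 0.27 and 0.39.

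Single members rarely went against the family's direction in the first 2 comparisons. From iHEC to day 14, 79 of 82 members had a higher mean and 3 a lower one. From day 14 to day 17, 81 had a lower mean and 1 a higher one. From day 17 to day 21 they were mixed, with 58 higher and 24 lower. Counted past a difference of 1, 43 members were higher from iHEC to day 14, or 52.4% of 82, where 48% of all tested genes were. None was lower, against 11.5% of all tested genes. The first share is near the background, which itself was 64.3% with a pseudocount of 0.1 and 20.6% with 10, and nothing is read from it about the members.

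From day 14 to day 17, 3 members were lower by more than 1, Rps29, Rps21 and Rpl26, or 3.66% beside 3.89% of all tested genes. None was higher, where 15.5% of all tested genes were. From day 17 to day 21, Rps27 and Rpl39 were higher by more than 1, or 2.44% beside 2.33%, and Rps4y2 alone was lower, or 1.22% where 38.5% of all tested genes were. The members kept close to each other. In the 3 comparisons 77, 82 and 80 of 82 members lay within 1 of the members' median, whereas 48.3%, 83.9% and 76.6% of all tested genes lay within 1 of their own. The sets differ in level and detection, since tested genes include many that a large part of the cells lack.

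**Figure D2:**
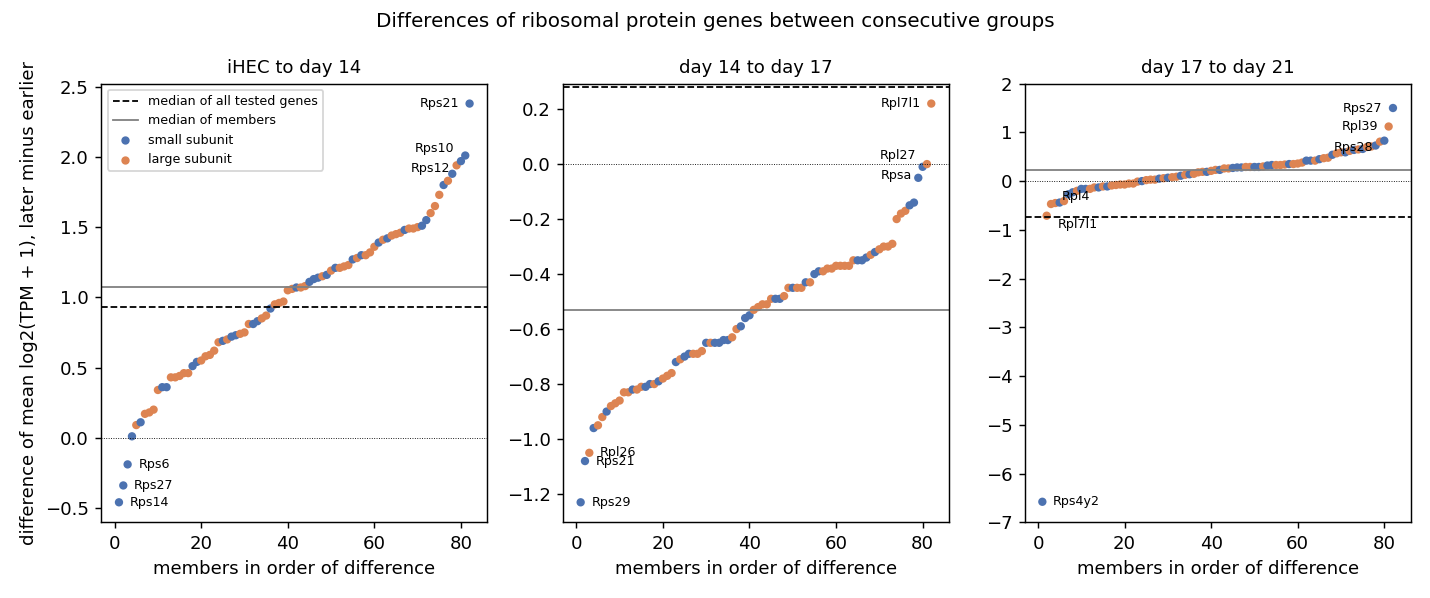
Difference of the mean log2(TPM + 1) of each of 82 members between consecutive groups, later minus earlier, in order of size. Blue points are small subunit and orange points large subunit members, the grey line is the members' median and the dashed line the median of all 9674 tested genes. The dashed line lies just under the members' median from iHEC to day 14, above all members from day 14 to day 17, and below all but Rps4y2, which stands alone at -6.58, from day 17 to day 21.

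Nearly all members were found in nearly every cell. Of the 85, 81 were above 1 TPM in at least 157 of the 160 cells and 68 in all of them. The mean over groups of log2(TPM + 1) was highest for Rpl13 (11.84), Rps14 (11.44), Rps18 (11.33), Rpl41 (11.32) and Rplp0 (11.27). It was lowest among tested members for Rpl26 (4.22), Rps4y2 (5.47), Rpl22 (6.24), Rps15a (6.26) and Rps27 (6.32). TPM is scaled by transcript length, which by itself does not make the levels of different members comparable. Ribosomal protein genes have many processed copies in the genome. How reads shared with such copies were counted is not given in the sources used here. The order of members by level is therefore uncertain, as is the level of a low member such as Rpl26, Rps15a or Rps27.

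Within a group the members varied less between cells than most genes. Over 81 members the median SD of log2(TPM + 1) was 0.72 for iHECs and 0.31, 0.41 and 0.60 for the iHPCs by day. The medians over all tested genes were 2.31, 1.40, 1.39 and 1.92. Members are high and tested genes include many that most cells lack, so the 2 sets differ in level as well.

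With all cells, Rps14 was the member furthest under the family from iHEC to day 14. Without the 2 cells that stand apart Rps27 lay further under, at -1.64 relative to the family against -1.56 for Rps14. With the median over cells in place of the mean these values were -1.86 and -1.48. Rps14 encodes a small subunit protein, and its loss underlies the anemia of a myelodysplastic syndrome. Its level ran from 1783 to 8532 TPM in iHECs with a median of 3924, from 2221 to 5431 at day 14 with a median of 2823, from 742 to 2755 at day 17 with a median of 1853, and from 1669 to 6660 at day 21 with a median of 2697. Rps14 alone held 5.52% of all member TPM in iHECs, the most of any member there, and 2.34%, 2.06% and 2.91% in the later groups. Its mean was 0.46 lower from iHEC to day 14 (iHEC 11.96 ± 0.49, day 14 11.51 ± 0.31, SD), which put it 1.52 under the family. The ranges overlapped at each step.

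A further 3 small subunit genes and 1 large subunit gene were not higher with the family at day 14. Rps6, whose protein is the classic substrate of S6 kinase, had a median of 1782 TPM (750.5 to 4630) in iHECs and 1563 (1238 to 2145) at day 14, a mean difference of -0.19. The difference was 0.01 for Rps19, the gene most often mutated in Diamond-Blackfan anemia, with medians of 2342 and 2150 TPM. For Rpl3, which lies close to the peptidyl transferase center, it was 0.09. Rps27 had medians of 102.1 TPM in iHECs and 55.9 at day 14 and a mean difference of -0.34, or -0.56 without the day-14 cell numbered 15, which held 1706 TPM. All of them lay at least 0.97 under the family. For Rps27 the uncertainty about processed copies, given above for low members, applies.

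At the other end stood Rps21, Rps10, Rps12, Rplp2 and Rps13. Rps21 had a median of 163 TPM in iHECs, where it ran from 0 to 852.6, and of 598 at day 14, where the lowest cell was at 418.7. Its mean was 2.38 higher, or 1.31 above the family. Rps10, a protein of the small subunit head, had medians of 338.4 and 1105 TPM and was 2.01 higher. Rplp2, a protein of the stalk that recruits elongation factors, was 1.94 higher, from a median of 356.5 TPM (32.5 to 1948) to 1294 (647.7 to 1915).

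For all 5 the spread in iHECs was wide. The SD between cells was 1.63 for Rps21, 1.61 for Rps10 and 1.89 for Rps12, against 0.41, 0.26 and 1.92 at day 14. Rps12 was listed at 0 in 2 iHECs and in the day-14 cell numbered 15. Without that cell and the day-21 cell named above, Rps12 stood 1.3 above the family in place of 0.90. Taking the median over cells in place of the mean, Rps21 stood 0.86 above the family.

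**Figure D3:**
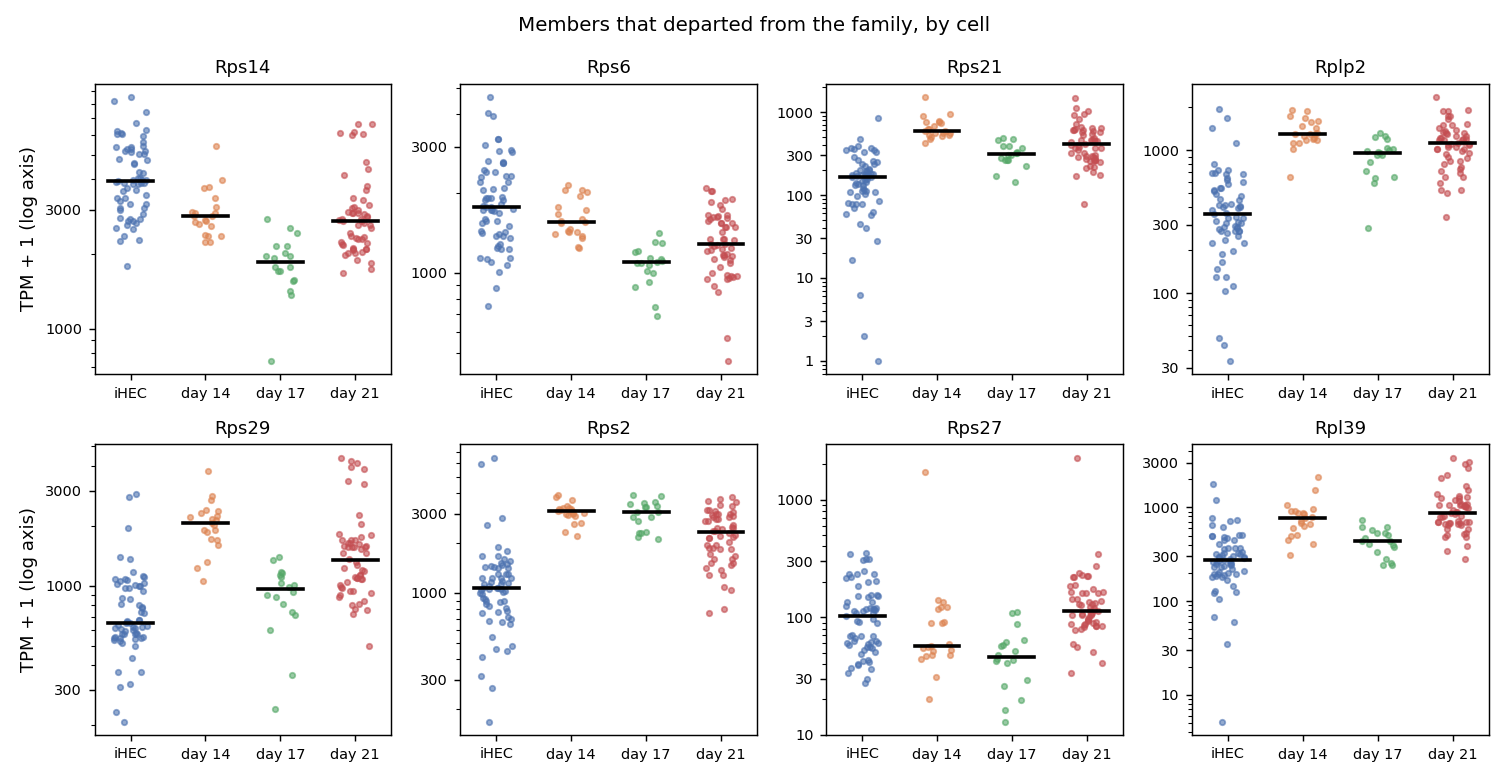
TPM + 1 of 8 departing members in every cell by group, on log axes that differ between panels, with a bar at the median. Rps14 and Rps6 are highest in iHECs, Rps21 and Rplp2 lowest there, Rps29 peaks at day 14, Rps2 is level from day 14 to day 17, and Rps27 and Rpl39 are higher at day 21 than at day 17.

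From day 14 to day 17, Rps29 was lower by more than any other member. Rps29, a zinc-binding protein of the small subunit, had a median of 2067 TPM (1054 to 3773) at day 14 and 957.8 (241.1 to 1393) at day 17, a difference of -1.23 and of -0.70 relative to the family. Rps21 was 1.08 lower, with medians of 598 and 311.2 TPM. Rpl26 was 1.05 lower, but at 28.6 and 14.3 TPM it was the least abundant tested member. It stood 0.53 under the family with all cells and 0.36 under it without the 2 cells that stand apart. Rps7 and Rpl35a, both Diamond-Blackfan anemia genes, were 0.96 and 0.95 lower.

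A few members held their level at that step. Rpsa, the laminin receptor protein of the small subunit, had a median of 957.9 TPM (668.6 to 1209) at day 14 and 986.6 (646.6 to 1363) at day 17. Rps2, which lines the entry of the message channel, had medians of 3105 and 3066 TPM. Relative to the family they stood 0.52 and 0.47 higher. Rpl27 appeared among them at a difference of 0.00 only because the day-14 cell numbered 15 listed it at 0, where the other 20 cells held at least 963 TPM. Without that cell its difference was -0.49, or 0.08 relative to the family.

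From day 17 to day 21, Rps27 and Rpl39 were above the family. Rps27, a zinc-finger protein of the small subunit, had a median of 45 TPM (12 to 110.3) at day 17 and 113 (32.8 to 2278) at day 21, a difference of 1.5 and of 1.27 relative to the family. The top value came from the day-21 cell numbered 27, and the other 55 cells reached 346.9 TPM at most. Without this cell and the day-14 cell the relative difference was 1.20. The uncertainty about processed copies, given above for low members, applies to this difference of Rps27 too. Rpl39, which lines the exit tunnel of the nascent chain, had medians of 435.6 TPM (238.6 to 726.1) and 877 (282.3 to 3395), a difference of 1.12. Rps28, Rpl22l1 and Rps29 followed at 0.83, 0.81 and 0.73.

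Rpl7l1, Rpl4, Rpl8 and Rps2 were lower from day 17 to day 21, by 0.71, 0.47, 0.45 and 0.44. Rpl4, whose loop reaches into the exit tunnel, had medians of 2683 TPM (2294 to 3225) and 1970 (764.6 to 3319). At day 17 it was among the steadiest members, with an SD of 0.14. The ranges of Rpl4 overlapped, and the median tested gene was 0.74 lower at this step.

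The P stalk and the 5S particle are the assemblies of the large subunit that were followed as units. The 3 stalk proteins together held a median of 0.237% of TPM in iHECs (0.113% to 0.889%) and 0.724% at day 14 (0.565% to 0.955%). At day 17 and day 21 the medians were 0.532% and 0.549%. All 3 stalk genes were higher by more than 1 from iHEC to day 14, with Rplp0 at 1.36, Rplp1 at 1.83 and Rplp2 at 1.94, where 48% of all tested genes were. Rplp0 then parted from the acidic pair Rplp1 and Rplp2, since from day 17 to day 21 it was 0.41 lower while they were 0.65 and 0.29 higher. Rpl5 and Rpl11, which with 5S ribosomal RNA can bind Mdm2 and so stabilize p53, held 0.134%, 0.265%, 0.194% and 0.194% of TPM in the 4 groups. Of them, Rpl11 was 1.5 higher at day 14 than in iHECs and Rpl5 0.58.

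All 19 Diamond-Blackfan anemia genes were tested. From iHEC to day 14, 9 were higher by more than 1, a share near the 48% of all tested genes, and none was lower, beside 11.5%. From day 14 to day 17 none was higher and 2 were lower, beside 15.5% and 3.89% of all tested genes. From day 17 to day 21 only Rps27 was higher and none was lower, beside 2.33% and 38.5% of all tested genes. Their median differences were 0.97, -0.65 and 0.33, near those of the family, and the list overlaps the family fully.

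The Rps4y2 row left the family in the last group. RefSeq gives Rps4y2 as an older name of Rps4l, a transcribed pseudogene on chromosome 6 (chr6:148354656-148355596, GRCm38.p6), on the plus strand, in an intron of Tmtc1, which runs on the minus strand. Despite its older name it is not on the Y chromosome. It is related to Rps4x, the X-linked gene of the small subunit protein (chrX:102184941-102189391, minus strand). The GENCODE pseudogene transcript Rps4l-202 is a single exon of 789 bases, and all 789 form an unbroken reading frame from start codon to stop codon.

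Rps4l and the Rps4x coding sequence of 792 bases matched at 632 of 789 aligned bases, or 80.1%. The longest stretch without a mismatch was 35 bases. The stretch of 60 bases with the most mismatches, 20, lies at positions 475 to 534 of both coding sequences, which in Rps4l is chr6:148355184-148355243 on the plus strand. It is printed to show how the reads of this pair can be told apart, with the mismatches in capitals.
Rps4x: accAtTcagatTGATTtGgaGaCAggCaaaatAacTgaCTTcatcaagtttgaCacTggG
Rps4l: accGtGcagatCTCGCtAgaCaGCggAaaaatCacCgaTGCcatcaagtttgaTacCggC

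Of 65 iHECs, 58 held Rps4y2 above 1 TPM, or 89.2% (exact 95% interval 79.1% to 95.6%, counting error only). Its level there ran from 0 to 659.9 TPM with a median of 155. At day 14, 20 of 21 cells did, with a median of 286 TPM and a highest value of 2231. At day 17 all 18 did, from 2.54 to 522.1 TPM with a median of 265. Up to this day the row was widely detected, with a wide spread between cells.

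At day 21 it was above 1 TPM in 7 of 56 cells, or 12.5% (exact interval 5.18% to 24.1%), and 48 cells listed it at exactly 0. The 7 cells held 180, 168, 107, 37, 30.4, 3.10 and 2.65 TPM. The difference from day 17 to day 21 was -6.58 on the log2(TPM + 1) scale, the lowest of all 9674 tested genes. Rps4x ran against this, with medians of 907, 1444, 1103 and 1252 TPM in the 4 groups and no cell below 249.6. Of the pair's summed TPM, Rps4y2 held 15.2%, 23.2%, 18.3% and 0.687%.

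The genes around Rps4l did not share its pattern. Ergic2 passed 1 TPM in all 18 day-17 cells and 53 day-21 cells, with medians of 42.6 and 48.1 TPM. Ipo8 was above 1 TPM in 12 and 32 cells, and Tmtc1 in at most 2 cells of any group. By a pattern chosen after these values were seen, above 1 TPM in at least 85% of the cells of each earlier group and at most 15% of day-21 cells, the table held 2 genes. The other was Ppic, a cyclophilin, whose medians of 780.5, 169 and 11 TPM were lower by day and which was above 1 TPM in 4 of 56 day-21 cells. The 6 day-17 cells with Y-linked transcripts all held Rps4y2 above 1 TPM.

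**Figure D4:**
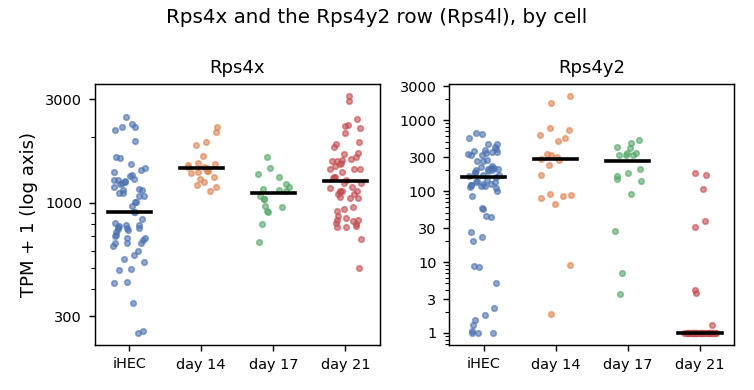
TPM + 1 of Rps4x and of the Rps4y2 row (Rps4l) in every cell by group, on log axes that differ between panels, with a bar at the median. Rps4x stays between medians of 907 and 1444 TPM, while 48 of 56 day-21 cells list Rps4y2 at 0.

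Of the remaining paralogs, 3 are germline or muscle forms and were close to silent. Rpl3l, the muscle copy of Rpl3, was above 1 TPM in 5 of 160 cells, and Rpl10l and Rpl39l, the testis copies of Rpl10 and Rpl39, in 2 cells each. None of the 3 was above 1 TPM in an iHEC, and counting 0 as at most 3 of 65 cells allows a share of up to 4.62%. The highest values were 17.8, 33.8 and 57.8 TPM.

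The other pairs were expressed on both sides, and the paralog often outweighed its namesake. Rpl22l1 and Rpl22 match at 70.4% of aligned coding bases. The Rpl22 protein can repress Rpl22l1, and the pair matters in T cell development. Rpl22 had medians of 70.7, 112, 76.0 and 79.3 TPM in iHECs and at day 14, 17 and 21, and Rpl22l1 of 199, 472, 301 and 463. Rpl22l1 held 73.8%, 81.9%, 78.6% and 84.9% of the pair and exceeded Rpl22 in 60 of 65 iHECs, 21 of 21, 18 of 18 and 55 of 56 iHPCs. In iHECs the share of single cells ran from 0% to 99.4%, a wider range than at any later day.

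Rps27l, a p53 target, outweighed Rps27 in 159 of 160 cells and held 93.0%, 93.2%, 95.7% and 90.7% of the pair's summed TPM. The day-14 and day-21 sums include the cells that stand apart, which held Rps27 at 1706 and 2278 TPM. The median over cells of the Rps27l share was 93.8%, 96.5%, 95.9% and 93.1%, so the order of groups by share differed between the summed and median values. Rps27l itself had medians of 1357, 1648, 1099 and 1437 TPM. The coding sequences match at 76.1% of bases. The low reading of Rps27 carries the uncertainty about processed copies given above. Rpl36al and Rpl36a, which match at 87.9% of coding bases, were closer to balance, with the paralog at 54.3% in iHECs and 65.8%, 63.5% and 65% later.

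Rpl7l1 was the minor partner of Rpl7, at 17.9%, 10.7%, 16.6% and 10.3% of the pair, with 59.3% of aligned bases matching. It was also the only member with a higher mean at day 17 than at day 14, by 0.22. Its median was nearly level from iHEC to day 14, at 218 and 212 TPM, while that of Rpl7 went from 1037 to 1748. At day 17 and day 21 the medians were 258 and 189 TPM for Rpl7l1 and 1271 and 1434 for Rpl7. At the last step Rpl7l1 was 0.71 lower with all cells.

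**Figure D5:**
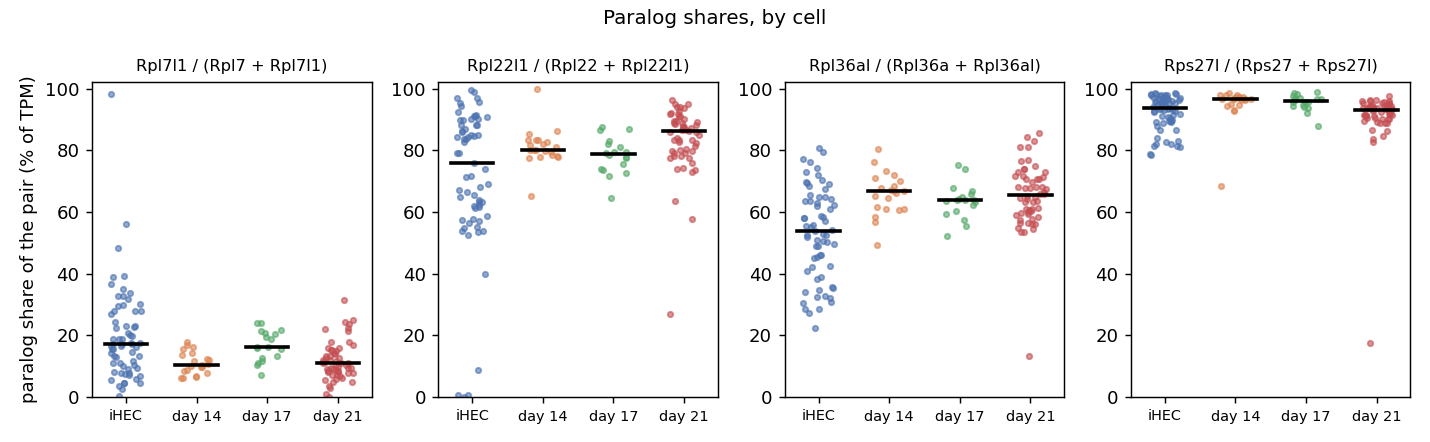
Share of a pair's TPM held by the paralog (%), in every cell with either gene above 1 TPM, by group, with a bar at the median. Rpl22l1 and Rps27l hold most of their pairs in all groups, Rpl36al moves from a median of 53.6% in iHECs to 66.9% at day 14, and a single day-21 cell lies far below the rest in 3 of the 4 panels.

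That single day-21 cell was number 27. In it Rpl36al held 13.4%, Rps27l 17.5% and Rpl22l1 26.9% of their pairs, where the group medians were 65.4%, 93.1% and 86.1%. It listed Rpl17 at 0, where the other 55 cells held 285 to 1280 TPM, and the pseudogene row Rpl34-ps1 at 0, where they held 77.5 to 2826. Rpl11 stood at 6045 TPM, above the 3341 of the next cell. The day-14 cell numbered 15 shared part of this, with Rps27 at 1706 TPM where the other 20 cells reached 138.8 at most, and Rpl22, Rpl27, Rpl34, Rps12 and Rps28 at or under 1 TPM. Their total shares, 10.8% and 13.6%, lay inside their groups' ranges.

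The other genes of the pathway were read by fixed lists. The 18 measured translation factors and related genes include elongation factors and other messages with the pyrimidine start. Of these, 6 were higher by more than 1 from iHEC to day 14 and none was lower, beside 48% and 11.5% of all tested genes. The list's median was 0.94, beside 0.93 for all tested genes. The latter was 1.83 with a pseudocount of 0.1 and 0.21 with 10, so no order is read from it. The list's medians at the next steps were -0.39 and -0.13. Fau, which encodes a ribosomal protein fused to a ubiquitin-like protein and was outside the name pattern, was 1.20 higher at day 14 and then 0.88 lower at day 17. Eef1a1, the most abundant elongation factor, did not follow, at -0.16, -0.01 and -0.14, with medians between 2673 and 3130 TPM in all groups. Across cells, the list's mean level had an r with the ribosomal protein share of 0.57 in 65 iHECs, 0.59 in 21 day-14, 0.86 in 18 day-17 and 0.51 in 56 day-21 cells.

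Ribosome biogenesis genes, which build the particle in the nucleolus, were read beside its proteins. Their summed share of TPM had medians of 0.313%, 0.741%, 0.644% and 0.502% in the 4 groups. From iHEC to day 14, 29 of 33 were higher by more than 1 and none was lower, beside 48% and 11.5% of all tested genes, with a median of 2.72. Bop1, an assembly factor of the large subunit, passed 1 TPM in 22 of 65 iHECs but in each of the 21 day-14 cells, and Rrp9 in 27 and 21. Several of these genes were missing from many iHECs, so the log2 differences follow detection as well as level. Their dependence on the pseudocount was not tested. From day 14 to day 17 none was past 1, where 15.5% of all tested genes were higher and 3.89% lower, and the median was 0.03. From day 17 to day 21, 19 of 33 were lower by more than 1, where 38.5% of all tested genes were, and none was higher, with a median of -1.38, while the median member of the ribosomal protein family was 0.23 higher. Across cells the share of ribosomal protein TPM had an r with the mean level of the biogenesis list of -0.09 in iHECs and of -0.32, 0.14 and -0.39 in the iHPCs by day.

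Mitochondrial ribosomal protein genes encode a separate ribosome. Of 76 rows, 55 were higher by more than 1 from iHEC to day 14 and none was lower, beside 48% and 11.5% of all tested genes, with a median of 1.72. Their medians at the next steps were -0.18 and -0.22. They held a median of 1.23%, 1.62%, 1.36% and 1.43% of TPM in the 4 groups, in the same order of groups as the cytosolic family.

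Of 12 regulators of mTORC1 and of messages with the pyrimidine start, 5 were higher by more than 1 in the first comparison and none lower, 3 were higher in the second and none lower, and 7 were lower in the last and none higher. Of all tested genes 48% were higher in the first comparison, 15.5% in the second, and 38.5% lower in the last, so the first count is near the background. Larp1, which binds the pyrimidine start, had medians of 6.23, 18.2, 20.4 and 14.7 TPM. Eif4ebp1, an mTORC1 substrate that holds back the cap-binding protein, was lower in each later group, with medians of 946.1, 469.5, 259.6 and 158 TPM. Of 10 S6 kinase rows 7 were tested, of which 3 were higher by more than 1 in the first comparison, 2 in the second and none in the last, where 5 were lower, beside the same shares of all tested genes. Myc, a driver of ribosome production, had medians of 43.9, 307, 180 and 100.2 TPM. Within groups its log2 level had an r with the ribosomal protein share of -0.06 in iHECs and of -0.55, -0.20 and -0.12 in the iHPCs by day. Mycn, its relative, had medians of 108.5, 116, 132 and 44.2 TPM.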

How the data were processed

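Amplified cDNA of single sorted cells (Discover-sc WTA Kit V2) was made into libraries with the TruePrep kit by the authors. The sequencer differs between the labels and the methods. Reads were aligned to mm10 with HISAT2 2.1.0 and the authors deposited TPM from StringTie 1.3.4 in 1 table of 160 cells. TPM is scaled per cell, so depth and counts are unknown, and an exact 0 can be a failed estimate. No column was left unused (0).

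Levels were analyzed as log2(TPM + 1) and averaged over cells of a group. Genes above 1 TPM in more than 30 cells were compared, and differences past 1 were counted. Members and lists were chosen with earlier results of these data known. Named genes were every paralog row, the 5 highest and 5 lowest members relative to the family per comparison, the 5 highest and 5 lowest by level, members in 30 cells or fewer, the P stalk and Rpl5 and Rpl11. Others were chosen after their values were seen. Some genes that these rules name are not reported here. Promoters came from RefSeq, transcripts from GENCODE vM21. Intervals are Clopper-Pearson, and the limit for a count of 0 is 3 cells of the group. Scripts ran in Python 3.11.15 with pandas 2.3.3, scipy 1.17.1 and biopython 1.88. The script for the differences was tested on simulated data with known changes. The alternatives that left out single cells were added after seeing the data.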

Additional observations from a re-analysis of the deposited data

How the results depend on the processing

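No paired analysis was possible because the labels give no replicate that links cells of different groups, and the results come from no test. Of 86 recomputed values of the share, the median member difference and the counts past 1, 78 kept their direction and moved by less than the SD between cells, or by less than 1.5 times for a count. Leaving the 50 highest other genes out of the TPM total brought the day-14 share to 14.8%. With a threshold of 2, the members higher from iHEC to day 14 numbered 2, those lower from day 14 to day 17 numbered 0 and those higher from day 17 to day 21 numbered 0. Relative to the median of all tested genes, 4 members were higher and 3 lower by more than 1 from iHEC to day 14, beside 27.3% and 24.4% of all tested genes. On that scale 22 were lower from day 14 to day 17, beside 7.09%, and 39 higher from day 17 to day 21, beside 10.3%. The counts thus depend on the centring, by its own construction. Of 212 recomputed values of single members and pairs, 210 moved by less than the SD between cells. The exceptions were both of Rps4y2 from day 17 to day 21, relative to the family, at -9.66 with a pseudocount of 0.1 and -4.05 with 10. The SD between cells is a wide margin for uneven members, so this rule can miss a change. Rpl27 counted as unmoved from day 14 to day 17, though it went from 0.52 to 0.06 relative to the family with the median over cells (SD 1.62). With 1 sample per group, no spread between cultures is known.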
